A study of Homo sapiens with 12 samples.

Results

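Interferon sensing and signalling genes were followed as 9 members, IFIH1, TLR3, MAVS, IRF1, IRF3, IRF7, IRF9, STAT2 and JAK1, found by their symbols among the 20289 genes of the deposited count table. The samples were poly(A) RNA libraries of the established glioblastoma line U251, of human origin, 12 in all and 3 in each of 4 groups. shCD44 TMZ cells carried a short hairpin RNA against CD44, which encodes the hyaluronan receptor of the cell surface, and were kept for 24 h in 50 µM temozolomide, an alkylating drug given to patients with glioblastoma. shCtrl TMZ cells carried a control hairpin and were given the same drug at that dose and time; their titles read NC, which was taken as the control hairpin because the shCtrl DMSO libraries have NC in their descriptions too. shCD44 DMSO cells and shCtrl DMSO cells carried the same hairpins and received the solvent DMSO for 24 h. All 4 groups had thus been through lentivirus carrying a hairpin, and no group of unmodified cells was analysed here, although the genotype label of the control-hairpin libraries reads WT. The labels give neither the number of CD44 hairpins nor whether a group is 1 clone, and they do not say whether its 3 libraries are separate cultures, so every p-value below measures only the spread between libraries.

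Cells detect viral or displaced RNA through sensors: MDA5, the product of IFIH1, in the cytosol and TLR3 in endosomes. MDA5 signals through MAVS on the mitochondrial surface, TLR3 through its own adaptor, and both routes end on interferon regulatory factors, among which IRF3 and IRF7 switch on interferon genes. Secreted type I interferon then acts through its receptor and the kinases JAK1 and TYK2 on STAT factors, and STAT2 joins IRF9 in the complex ISGF3. ISGF3 binds a DNA element called the interferon-stimulated response element (ISRE), whereas pairs of STAT factors bind the gamma-activated site (GAS). Many genes of the pathway, several members among them, are themselves interferon-inducible.

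Windows of 300 bases, from 250 before to 50 after a RefSeq transcription start in GRCh38.p14, were available for 7 of the 9 members and were searched on both strands for the ISRE core GAAA-NN-GAAA and for the GAS letters TTCNNNGAA. Matches lay in 4 of the 7, and these 4 windows are shown because they belong to the members with the largest differences below. The IFIH1 window is chr2:162318635-162318934 on the minus strand, that of TLR3 chr4:186068906-186069205 on the plus strand, that of IRF1 chr5:132490724-132491023 on the minus strand and that of IRF9 chr14:24161015-24161314 on the plus strand. Each is written 5′ to 3′ on the gene's strand, and capitals mark every match.
IFIH1: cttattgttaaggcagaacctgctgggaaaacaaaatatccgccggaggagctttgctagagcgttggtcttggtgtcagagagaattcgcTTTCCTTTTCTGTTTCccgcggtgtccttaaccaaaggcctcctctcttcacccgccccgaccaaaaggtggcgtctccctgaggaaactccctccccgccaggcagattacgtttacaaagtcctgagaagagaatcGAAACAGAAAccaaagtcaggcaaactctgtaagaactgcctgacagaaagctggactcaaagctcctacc
TLR3: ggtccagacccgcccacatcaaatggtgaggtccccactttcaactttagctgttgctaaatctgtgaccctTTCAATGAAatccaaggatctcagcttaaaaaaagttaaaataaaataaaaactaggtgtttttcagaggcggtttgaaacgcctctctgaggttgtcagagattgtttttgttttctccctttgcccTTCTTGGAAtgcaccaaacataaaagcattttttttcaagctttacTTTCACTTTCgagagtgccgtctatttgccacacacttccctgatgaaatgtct
IRF1: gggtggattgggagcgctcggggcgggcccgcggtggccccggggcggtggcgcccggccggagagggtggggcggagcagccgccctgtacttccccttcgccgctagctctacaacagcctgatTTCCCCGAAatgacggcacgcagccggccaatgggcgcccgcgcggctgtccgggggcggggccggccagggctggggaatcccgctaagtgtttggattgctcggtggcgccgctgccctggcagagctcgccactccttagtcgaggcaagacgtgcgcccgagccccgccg
IRF9: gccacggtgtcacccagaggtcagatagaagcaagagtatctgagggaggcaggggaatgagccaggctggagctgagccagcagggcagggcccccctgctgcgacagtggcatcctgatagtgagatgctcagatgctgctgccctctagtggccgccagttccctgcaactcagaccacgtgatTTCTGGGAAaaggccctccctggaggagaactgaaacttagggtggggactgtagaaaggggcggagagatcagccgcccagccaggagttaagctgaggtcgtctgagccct
The IFIH1 window held 3 ISRE core matches beginning 159, 153 and 21 bases before the start, and the first 2 of them overlap. TLR3 held 1 ISRE core match beginning 4 bases before its start and GAS matches at 178 and 50 bases before it. IRF1 held a GAS match at 124 bases and IRF9 a GAS match at 63 bases before the start. No match was in the windows of MAVS, STAT2 or any of the 3 starts of JAK1, nor in that of RIGI, a further RNA sensor described below. Among 35116 promoter windows of this length, 3.57% held the ISRE core and 7.66% the GAS letters, and a match is a stretch of letters, not evidence of binding.

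Library totals ran from 13.5 to 24.8, in units of 1e6 counts, and 12821 genes, 8 members among them, passed the filter on low counts; IRF7 did not. CD44 itself stood at 29.3% to 30.5% of its shCtrl DMSO mean in shCD44 TMZ libraries, at 73.7% to 78.0% in shCtrl TMZ libraries and at 38.4% to 38.6% in shCD44 DMSO libraries, so each library matched its hairpin label. Of the glioma and neural progenitor markers, SOX2 averaged 275 CPM (counts per 1e6 counts, after TMM scaling of the totals) in shCD44 TMZ, 399 CPM in shCtrl TMZ, 292 CPM in shCD44 DMSO and 389.9 CPM in shCtrl DMSO libraries. SOX2 and PDGFRA were lower and NES, EGFR and VIM higher with the hairpin under both DMSO and temozolomide, and 6 of 8 tested markers of this list fell with temozolomide in each hairpin. Of all genes tested, 13.2% were called lower with temozolomide in shCD44 cells and 15.8% in shCtrl cells. The astrocyte marker GFAP was at most 1.80 CPM in any library and OLIG2 had 1 count in all 12. The 8 leukocyte and myeloid markers summed to 0.299 to 1.17 CPM, with AIF1 and CD3E at 0 throughout. The 4 endothelial markers, mostly CDH5, summed to 14.0 to 15.6 CPM in shCD44 TMZ, 20.7 to 24.1 CPM in shCtrl TMZ, 30.2 to 31.3 CPM in shCD44 DMSO and 42.6 to 48.6 CPM in shCtrl DMSO libraries. CDH5 was lower with the hairpin and with the drug, whereas with the hairpin TEK rose by 0.79 under DMSO and PECAM1 by 2.05 under temozolomide on the log2 scale (edgeR adjusted p = 0.0388 and 0.00252). PECAM1 was near the limit of detection, with 15, 13 and 6 counts in shCD44 TMZ and 5, 2 and 2 in shCtrl TMZ libraries. The part of these markers in the results below was not tested. Some libraries stood apart in this pathway: shCD44 TMZ library 1 was the highest of its group for 27 of 29 interferon-stimulated genes tested and for 5 of the 8 tested members, shCtrl DMSO library 2 for 23 of 29 and 4 of 8, and shCD44 DMSO library 2 for 19 of 29 and 4 of 8, so results that rest on them are given with and without them. In bulk RNA, fewer cells expressing a gene and less RNA per cell cannot be told apart.

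The members stood at different levels. On the FPKM scale, which divides by transcript length, JAK1 was the highest member in every group, at 41.8 ± 0.254 FPKM in shCD44 TMZ, 42.0 ± 1.44 in shCtrl TMZ, 39.1 ± 0.773 in shCD44 DMSO and 37.8 ± 1.15 in shCtrl DMSO libraries (SD, n = 3 each). IRF7 was the lowest in every group. In shCtrl DMSO libraries the order below JAK1 was IRF3 (14.4 FPKM), STAT2 (13.3), IRF9 (10.6), MAVS (10.4), IFIH1 (7.63), IRF1 (6.89), TLR3 (2.99) and IRF7 (0.0733). Neighbours whose library ranges overlapped there were IRF3 and STAT2, IRF9 and MAVS, and IFIH1 and IRF1. In shCD44 DMSO libraries IRF9 stood next to JAK1 at 27.5 ± 5.86 FPKM, followed by IRF3 (15.8 FPKM), STAT2 (15.0), IFIH1 (14.3), IRF1 (12.9), MAVS (9.52), TLR3 (6.05) and IRF7 (0.130), where IRF3 overlapped STAT2 and STAT2 overlapped IFIH1. IRF9, IFIH1 and IRF1 thus each stood above MAVS in the knockdown under DMSO, with no overlap between IRF1 and MAVS, whereas IFIH1 and IRF1 stood below it in control cells. With temozolomide the order in shCD44 cells was JAK1, IRF9 (18.8 FPKM), IRF3 (17.9), STAT2 (13.8), IRF1 (13.3), IFIH1 (10.9), MAVS (10.4), TLR3 (4.64) and IRF7 (0.277), where IRF9 overlapped IRF3 and the run from STAT2 to MAVS overlapped from each gene to the next. In shCtrl TMZ libraries the order was JAK1, IRF3 (15.9 FPKM), STAT2 (14.2), MAVS (11.3), IRF9 (9.68), IFIH1 (8.52), IRF1 (6.55), TLR3 (3.18) and IRF7 (0.140), and no neighbours overlapped.

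**Figure D1:**
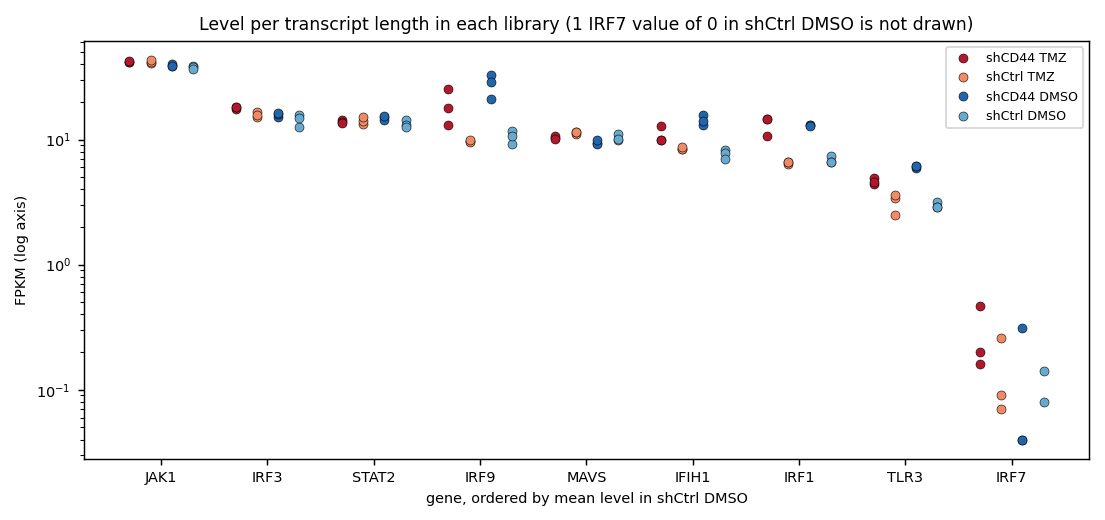
FPKM of each member (log axis) in each library, 1 point per library and 1 column per group, genes ordered by their shCtrl DMSO mean. IRF9, IFIH1, IRF1 and TLR3 have their shCD44 DMSO points above their control points, while JAK1, MAVS, IRF3 and STAT2 keep close columns; IRF7 lies below 1 FPKM throughout.

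The first question was what the CD44 hairpin did to these genes without the drug. In shCD44 DMSO against shCtrl DMSO libraries, 5 of the 8 tested members rose (IFIH1, TLR3, IRF1, IRF9 and STAT2), 1 fell (MAVS), and IRF3 and JAK1 passed in neither direction (edgeR quasi-likelihood test, Benjamini-Hochberg adjusted p under 0.05). Over all genes tested, 42.6% were called in this comparison, 21.1% higher and 21.4% lower, which is 2710 and 2748 genes; scaling by library totals alone gave 3387 higher and 2167 lower. The median log2 fold change of the tested members was 0.47, against 0.00 over all tested genes, and their range ran from -0.17 to 1.33. The members were chosen with earlier results of these data known, so these values are no independent evidence of direction. The 2 groups did not overlap for 7 of the 8 members, a separation that 51.3% of all tested genes showed. With temozolomide in both arms, shCD44 TMZ against shCtrl TMZ libraries, the members called higher were IFIH1, TLR3, IRF1, IRF9 and IRF3, and MAVS fell again, beside 42.3% of all genes called, 22.0% higher and 20.3% lower. Here the members' median was 0.26, against 0.01 over all genes, and 7 of 8 did not overlap, as did 50.8% of all genes.

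**Figure D2:**
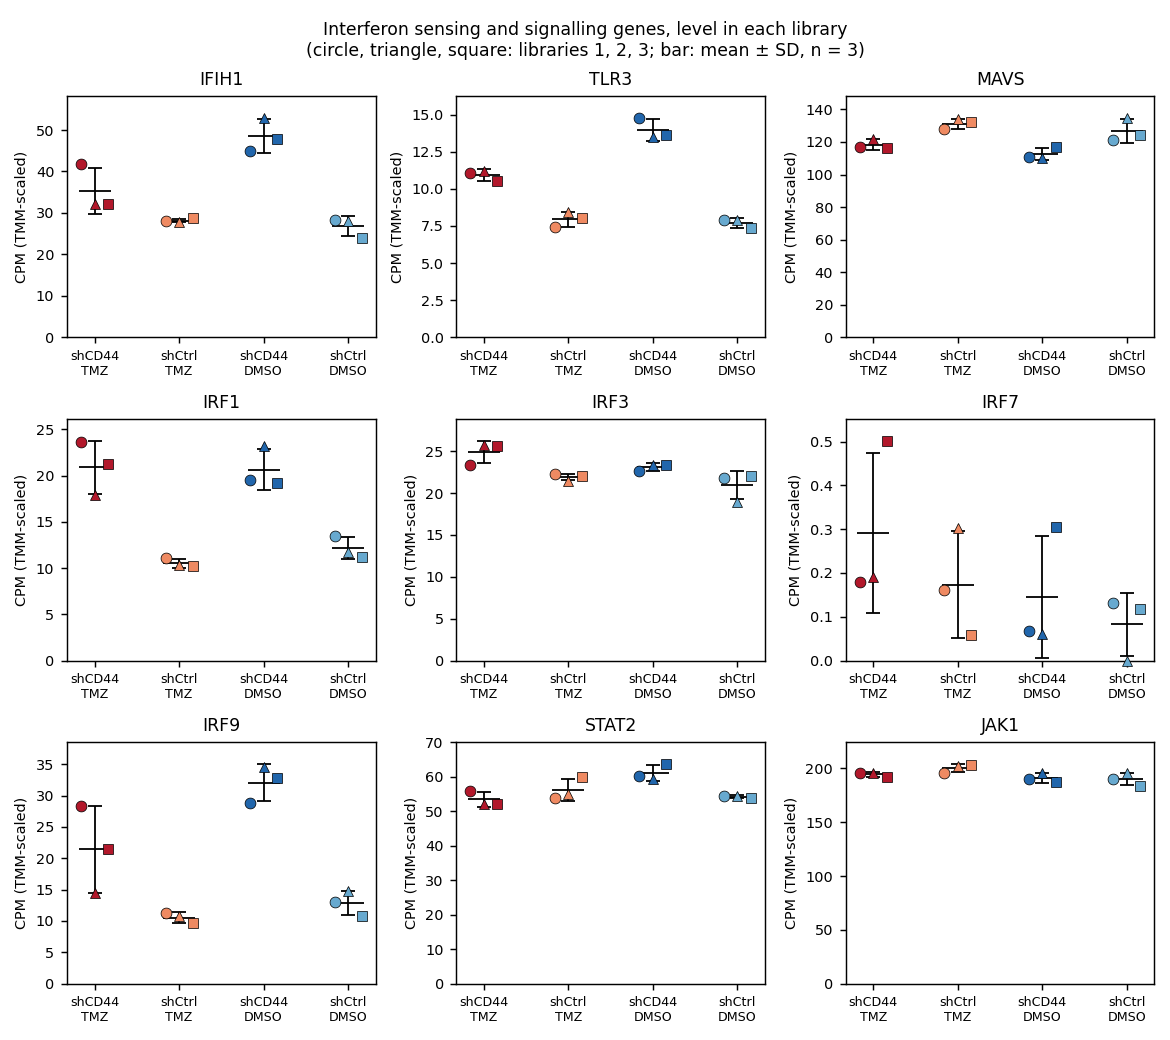
CPM of each member in each library on a linear axis from 0, groups from left to right shCD44 TMZ, shCtrl TMZ, shCD44 DMSO and shCtrl DMSO; bars give the mean and SD of 3 libraries. The shCD44 columns of IFIH1, TLR3, IRF1 and IRF9 lie above their shCtrl columns under the same solvent or drug, and shCD44 TMZ library 1 (circle) is the top point of its group for IFIH1, IRF1, IRF9 and STAT2.

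Among the sensors, IFIH1 (chromosome 2, 162267079 to 162318703, minus strand, GRCh38) encodes the cytosolic sensor of long double-stranded RNA. It had 41.8, 32.1 and 32.2 CPM in shCD44 TMZ libraries 1 to 3 and 28.0, 27.8 and 28.7 CPM in shCtrl TMZ libraries. Under DMSO it had 44.9, 53.0 and 47.9 CPM in shCD44 libraries, against 28.2, 28.1 and 24.0 CPM in shCtrl libraries. Every shCD44 library was above every shCtrl library, and the temozolomide-treated knockdown lay between, with its library 1 well above the other 2. The knockdown difference was 0.87 on the log2 scale under DMSO (SE 0.09, edgeR adjusted p = 8.8e-08) and 0.33 under temozolomide (SE 0.09, edgeR adjusted p = 0.00510). Without shCD44 TMZ library 1 the difference under temozolomide was 0.19 and its call was lost (edgeR adjusted p = 0.0613).

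TLR3 (chromosome 4, 186069152 to 186088069, plus strand), the endosomal sensor of double-stranded RNA, had 11.1, 11.2 and 10.5 CPM in shCD44 TMZ libraries, against 7.42, 8.41 and 8.02 CPM in shCtrl TMZ libraries. It had 14.8, 13.5 and 13.6 CPM in shCD44 DMSO libraries, against 7.90, 7.89 and 7.34 CPM in shCtrl DMSO libraries. The shCD44 groups were the 2 highest and did not overlap with each other or with the controls, and library 1 of shCD44 TMZ did not stand apart here. TLR3 rose by 0.86 under DMSO (SE 0.10, edgeR adjusted p = 3.4e-07) and by 0.47 under temozolomide (SE 0.10, edgeR adjusted p = 0.000436) on the log2 scale, and both calls held with each library left out in turn.

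MAVS (chromosome 20, 3846799 to 3876123, plus strand), the mitochondrial adaptor of the cytosolic RNA sensors, moved the other way and by little. It had 117, 122 and 116 CPM in shCD44 TMZ, 128, 134 and 132 CPM in shCtrl TMZ, 111, 110.0 and 117 CPM in shCD44 DMSO and 121, 135 and 124 CPM in shCtrl DMSO libraries. Each shCD44 group lay below its control without overlap. MAVS fell by 0.17 under DMSO (SE 0.04, edgeR adjusted p = 0.00333) and fell by 0.15 under temozolomide (SE 0.04, edgeR adjusted p = 0.00685) on the log2 scale. Neither call was made by limma on the FPKM values.

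Of the interferon regulatory factors, IRF1 (chromosome 5, 132481609 to 132490798, minus strand) is an interferon-inducible activator that also acts without new interferon synthesis. It had 23.6, 17.9 and 21.2 CPM in shCD44 TMZ libraries, against 11.1, 10.3 and 10.2 CPM in shCtrl TMZ libraries. It had 19.5, 23.2 and 19.2 CPM in shCD44 DMSO libraries, against 13.5, 11.7 and 11.2 CPM in shCtrl DMSO libraries. The lowest shCD44 library was above the highest control library, and the 2 shCD44 groups overlapped each other. IRF1 rose by 0.76 under DMSO (SE 0.11, edgeR adjusted p = 8.0e-06) and by 0.97 under temozolomide (SE 0.11, edgeR adjusted p = 2.8e-07) on the log2 scale. Another gene, AC116366.3, lies over IRF1 on the opposite strand along 9190 bases and had 0 to 435.11 counts per library. It averaged 6.72 ± 7.07 CPM in shCD44 DMSO and 13.5 ± 6.59 CPM in shCtrl DMSO libraries (SD, n = 3 each). With temozolomide it averaged 11.4 ± 6.37 CPM in shCD44 and 13.9 ± 3.20 CPM in shCtrl libraries. How strand was treated in counting is not given in the sources used here, so reads of the 2 genes may have been mixed. The IRF1 counts were whole numbers in every library, and mixing was not tested.

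IRF3 (chromosome 19, 49659569 to 49665875, minus strand), the factor that is activated by phosphorylation downstream of the sensors, changed little. It had 23.4, 25.8 and 25.6 CPM in shCD44 TMZ, 22.3, 21.5 and 22.0 CPM in shCtrl TMZ, 22.6, 23.4 and 23.4 CPM in shCD44 DMSO and 21.8, 19.0 and 22.0 CPM in shCtrl DMSO libraries. The shCD44 groups sat just above their controls. The log2 difference was 0.14 under DMSO (SE 0.07, edgeR adjusted p = 0.125) and 0.18 under temozolomide (SE 0.07, edgeR adjusted p = 0.0407). That second call was lost in 8 of the 12 fits with 1 library left out, where the adjusted p of edgeR reached 0.137 without shCD44 TMZ library 2, and in 8 of 11 other settings. IRF3 shares 734 bases with BCL2L12 on the opposite strand and has fractional counts, so its values are uncertain to that extent.

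IRF7 (chromosome 11, 612553 to 615999, minus strand), the factor that amplifies the interferon alpha genes, was near the limit of detection. It had 3, 4 and 7 counts in shCD44 TMZ libraries, 4, 5 and 1 in shCtrl TMZ libraries, 1, 1 and 6 in shCD44 DMSO libraries and 2, 0 and 2 in shCtrl DMSO libraries. The groups overlapped under the same solvent or drug and between solvent and drug within each hairpin, while the shCD44 TMZ libraries all lay above the shCtrl DMSO libraries, in counts and in CPM. A count of 0 allows up to 3 counts, or 0.121 to 0.222 CPM, which covers counting error only. It was not tested at the filter used. Without the filter on low counts its log2 difference was 0.82 under DMSO and 0.66 under temozolomide, with edgeR adjusted p-values of 0.605 and 0.585.

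IRF9 (chromosome 14, 24161053 to 24166565, plus strand), the DNA-binding subunit of ISGF3, had the widest range of the tested members. It had 28.3, 14.4 and 21.5 CPM in shCD44 TMZ libraries, against 11.2, 10.8 and 9.60 CPM in shCtrl TMZ libraries. It had 28.8, 34.6 and 32.8 CPM in shCD44 DMSO libraries, against 13.0, 14.7 and 10.8 CPM in shCtrl DMSO libraries. The shCD44 TMZ libraries were spread out, library 1 nearly reaching the DMSO-treated knockdown and library 2 lying below the highest shCtrl DMSO library. IRF9 rose by 1.33 under DMSO (SE 0.16, edgeR adjusted p = 1.0e-06) and by 1.00 under temozolomide (SE 0.17, edgeR adjusted p = 6.2e-05) on the log2 scale. Without shCD44 TMZ library 1 the second value was 0.73. With each library left out in turn it ran from 0.73 to 1.24 and was called in all 12 fits. AL136295.5 overlaps IRF9 on the same strand over 5513 bases and had 84.96 to 209.02 counts per library, with 7.46 ± 0.575 CPM in shCD44 DMSO and 6.78 ± 2.10 CPM in shCtrl DMSO libraries (SD, n = 3 each), and IRF9 has fractional counts, so part of its reads was shared out by estimation.

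STAT2 (chromosome 12, 56341597 to 56360155, minus strand), the STAT subunit of ISGF3 that IRF9 binds, had 55.8, 52.2 and 52.2 CPM in shCD44 TMZ libraries and 53.7, 54.9 and 59.8 CPM in shCtrl TMZ libraries. It had 60.3, 59.4 and 63.7 CPM in shCD44 DMSO libraries, against 54.4, 54.5 and 53.8 CPM in shCtrl DMSO libraries. Under DMSO the shCD44 libraries were all higher, and under temozolomide the groups overlapped. STAT2 rose by 0.17 on the log2 scale under DMSO (SE 0.05, edgeR adjusted p = 0.00760; limma on log2(FPKM + 1), adjusted p = 0.0513), while under temozolomide the value was -0.07 (SE 0.05, edgeR adjusted p = 0.285).

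JAK1 (chromosome 1, 64833229 to 64966504, minus strand), the kinase shared by the type I, II and III interferon receptors, had 196, 196 and 192 CPM in shCD44 TMZ, 196, 202 and 203 CPM in shCtrl TMZ, 190.5, 196 and 187 CPM in shCD44 DMSO and 190.4, 196 and 184 CPM in shCtrl DMSO libraries. The 4 groups lay close together. The knockdown difference was 0.01 on the log2 scale under DMSO (95% interval -0.06 to 0.08) and -0.04 under temozolomide (95% interval -0.11 to 0.03), so changes outside these intervals were not seen at this depth.

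The second question was what temozolomide did. In shCtrl cells, shCtrl TMZ against shCtrl DMSO, none of the 8 tested members was called by edgeR, beside 27.5% of all genes tested (11.7% higher and 15.8% lower, 1505 and 2024 genes; 2870 and 1295 when scaled by library totals alone). At an unadjusted p under 0.05 there was 1, JAK1 at 0.07 (SE 0.03), DESeq2 called 0, and scaling by library totals alone gave 2 members called higher. The values ran from -0.27 for IRF9 (SE 0.18, 95% interval -0.65 to 0.11) to 0.08 for IFIH1 (SE 0.09, 95% interval -0.12 to 0.27) on the log2 scale. IRF1 was the 1 member whose groups did not overlap, lower in all shCtrl TMZ libraries at -0.19 (SE 0.12, edgeR adjusted p = 0.237), where 39.7% of all genes separated in this way.

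In shCD44 cells, shCD44 TMZ against shCD44 DMSO, 4 of the 8 members fell and none rose, beside 22.3% of all genes called, 9.05% higher and 13.2% lower (1160 and 1694 genes; 2533 and 1078 when scaled by library totals alone). IRF9 fell by 0.60 (SE 0.15, edgeR adjusted p = 0.00620), IFIH1 fell by 0.46 (SE 0.08, edgeR adjusted p = 0.000449), TLR3 fell by 0.35 (SE 0.09, edgeR adjusted p = 0.00864) and STAT2 fell by 0.20 (SE 0.05, edgeR adjusted p = 0.00681) on the log2 scale. IRF1 was not called, at 0.01 (95% interval -0.20 to 0.22), nor were MAVS at 0.07, IRF3 at 0.11 and JAK1 at 0.03. The 2 groups separated for 5 of 8 members, IRF3 being the fifth and higher with temozolomide, against 37.2% of all genes. The IRF9 value depended on single libraries, at -0.87 without shCD44 TMZ library 1 and -0.36 without library 2, both called by edgeR. The IRF9 and STAT2 calls were not made by limma on log2(FPKM + 1), which gave adjusted p-values of 0.0732 and 0.224, and the TLR3 call was lost in 2 of the 3 limma settings.

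**Figure D3:**
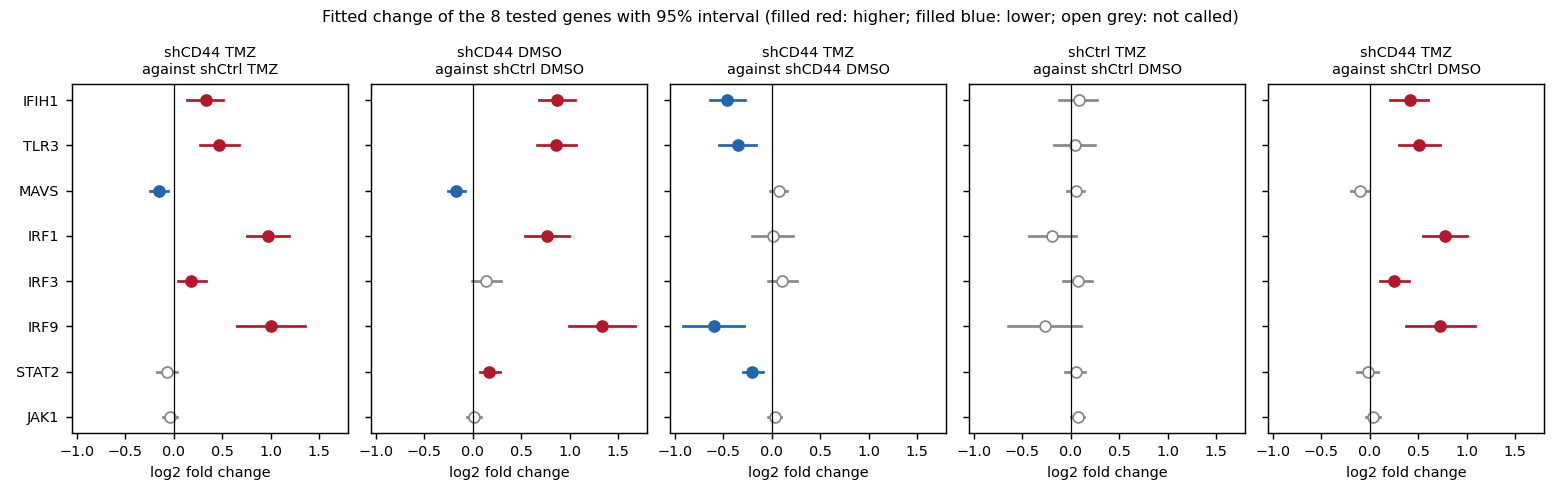
Log2 fold change of the 8 tested members with its 95% interval in 5 comparisons, each named with the group on top of the ratio first; filled points passed the threshold. IFIH1, TLR3, IRF1 and IRF9 lie right of 0 in all 3 panels that set shCD44 against shCtrl, and IFIH1, TLR3, IRF9 and STAT2 lie left of 0 in the panel for temozolomide in shCD44 cells.

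Whether the drug response itself differed between hairpins was tested as an interaction, the response in shCD44 cells minus that in shCtrl cells. It was called for 1 of the 8 members, IFIH1, beside 1.05% of all genes (0.437% higher and 0.616% lower, 56 and 79 genes; 45 and 107 with relative log expression factors). The IFIH1 difference of responses was -0.54 on the log2 scale (SE 0.13, 95% interval -0.80 to -0.28, edgeR adjusted p = 0.0426), made up of -0.46 in shCD44 cells and 0.08 in shCtrl cells. This call was lost in 8 of 12 fits that each left out 1 library, yet without shCD44 TMZ library 1 it was -0.68 (edgeR adjusted p = 0.00180). Over all settings, limma and DESeq2 included, the adjusted p ran from 0.000171 to 0.221. For the other members that fell in shCD44 cells the difference was not called, at -0.24 for STAT2 (SE 0.07, edgeR adjusted p = 0.0802), -0.39 for TLR3 (SE 0.14, edgeR adjusted p = 0.141) and -0.33 for IRF9 (SE 0.24, edgeR adjusted p = 0.495). IRF1 had 0.21 (95% interval -0.11 to 0.53). Without shCD44 TMZ library 1 the difference was -0.60 for IRF9 and 0.11 for IRF1, and without shCD44 TMZ library 2 it was -0.09 for IRF9 and 0.32 for IRF1; none of these was called by edgeR.

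Both changes together, shCD44 TMZ against shCtrl DMSO libraries, left 5 members higher and none lower, beside 49.9% of all genes called (25.4% higher and 24.5% lower, 3255 and 3143 genes; 5053 and 2039 when scaled by library totals alone). IRF1 stood at 0.78 (SE 0.11, edgeR adjusted p = 4.4e-06), IRF9 at 0.72 (SE 0.17, edgeR adjusted p = 0.00119), TLR3 at 0.51 (SE 0.10, edgeR adjusted p = 0.000205), IFIH1 at 0.41 (SE 0.09, edgeR adjusted p = 0.000917) and IRF3 at 0.25 (SE 0.07, edgeR adjusted p = 0.00665). MAVS at -0.10, STAT2 at -0.02 and JAK1 at 0.03 were not called. Groups did not overlap for 4 members, IFIH1, TLR3, IRF1 and IRF3, against 54.9% of all genes. Without shCD44 TMZ library 1 the values were 0.46 for IRF9 and 0.27 for IFIH1, still called. This comparison shares libraries with each of the 4 above, so its values are not independent of theirs.

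The wider pathway was read from gene lists, each counted against the same background percentages. Of all genes tested, the hairpin comparison called 21.1% higher and 21.4% lower under DMSO, and 22.0% and 20.3% under temozolomide. With temozolomide, 9.05% were called higher and 13.2% lower in shCD44 cells, and 11.7% and 15.8% in shCtrl cells. For the difference of responses these were 0.437% and 0.616%. Among 10 tested sensors of nucleic acid other than the members, of 16 listed, 9 rose and 1 fell in shCD44 DMSO against shCtrl DMSO libraries, with a median log2 fold change of 1.33. This list, like the members and the lists below, was chosen with earlier results of these data known. Its counts are thus no independent evidence of direction. RIGI, whose product RIG-I senses short RNA ends, had 60.8, 66.4 and 64.7 CPM in shCD44 DMSO libraries and 14.2, 20.0 and 10.3 CPM in shCtrl DMSO libraries, which is 2.12 on the log2 scale (edgeR adjusted p = 6.1e-09). Its groups were far apart, and under temozolomide it had 64.7, 35.2 and 41.3 CPM in shCD44 libraries against 16.1, 16.9 and 18.3 CPM in shCtrl libraries. DHX58, encoding the RIG-I-like receptor LGP2, rose by 0.91 under DMSO and by 0.94 under temozolomide (edgeR adjusted p = 0.000161 and 0.000142). OAS2, an enzyme that makes the activator of RNase L, rose by 3.25 under DMSO (edgeR adjusted p = 1.2e-08), and the DNA sensor IFI16 rose by 0.92 (edgeR adjusted p = 4.5e-09). The 1 that fell was STING1, the adaptor of cytosolic DNA sensing, at -0.23 (edgeR adjusted p = 0.0303). Without shCtrl DMSO library 2, the highest of its group for 8 of the 10 sensors, 9 were higher and 0 lower, and without shCD44 DMSO library 2 these were 8 and 0.

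Under temozolomide, 7 of these 10 sensors were higher in shCD44 than in shCtrl libraries and none was lower, and the median was 1.09. With temozolomide 6 of the 10 fell in shCD44 cells (median -0.42) and 1 in shCtrl cells (median -0.05). EIF2AK2, the RNA-activated kinase PKR, was the 1 sensor with a called difference of responses, at -0.40 (edgeR adjusted p = 0.0388). Without shCD44 TMZ library 1, which was the highest of its group for all 10 sensors, 7 were higher and 1 lower in shCD44 TMZ against shCtrl TMZ, and 7 fell with temozolomide in shCD44 cells. The number with a called lower difference of responses was then 4, against 1 without shCtrl DMSO library 2 and 0 without shCD44 DMSO library 2.

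Adaptors, ubiquitin ligases and kinases that act between sensor and interferon gene moved less. Of 21 tested, 10 rose and 2 fell in shCD44 DMSO against shCtrl DMSO libraries (median 0.12), and 11 rose and 1 fell in shCD44 TMZ against shCtrl TMZ libraries (median 0.19). Over all genes, 21.1% were called higher and 21.4% lower under DMSO, and 22.0% and 20.3% under temozolomide. TNFAIP3, which encodes the inhibitory ubiquitin-editing enzyme A20, rose by 1.08 under DMSO and by 1.22 under temozolomide (edgeR adjusted p = 2.4e-08 and 3.5e-09). TANK, a scaffold of the TBK1 complex, rose by 0.47 and 0.33 (edgeR adjusted p = 1.4e-06 and 7.2e-05). TBK1, the kinase of IRF3, rose by 0.19 under DMSO (edgeR adjusted p = 0.0174) and was at 0.12 under temozolomide (edgeR adjusted p = 0.107). IRAK4, a kinase of Toll-like receptor signalling, was at -0.33 and -0.56 (edgeR adjusted p = 0.00112 and 2.1e-06). With temozolomide 2 of the 21 rose and 1 fell in shCD44 cells (2 fell without shCD44 TMZ library 1), and 2 rose and 3 fell in shCtrl cells (1 rose without shCtrl DMSO library 2).

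Other IRF family genes and IRF2-binding proteins showed no rise with the hairpin, with 0 of 5 tested higher and 2 lower under either solvent or drug. The count of lower genes was 1 under temozolomide without shCD44 TMZ library 1, and 1 under DMSO without library 2 of either shCD44 DMSO or shCtrl DMSO. Of all genes tested, 21.4% were called lower with the hairpin under DMSO and 20.3% under temozolomide. IRF2BPL, an IRF2-binding protein gene, was at -0.50 under DMSO and -0.34 under temozolomide (edgeR adjusted p = 7.3e-07 and 6.3e-05). Interferon ligands were at the detection limit: none of 21 passed the filter, and their counts summed to 8 to 13 per library in shCD44 TMZ, 4 to 17 in shCtrl TMZ, 7 to 17 in shCD44 DMSO and 7 to 16 in shCtrl DMSO libraries. IFNB1, interferon beta, had 2, 1 and 2 counts in shCD44 TMZ, 0, 0 and 0 in shCtrl TMZ, 3, 3 and 2 in shCD44 DMSO and 1, 0 and 1 in shCtrl DMSO libraries. Each shCD44 library held more IFNB1 counts than any shCtrl library under the same solvent or drug. In CPM, 51.3% of all tested genes separated under DMSO and 50.8% under temozolomide. IFNA13 went the other way under DMSO, with 1, 1 and 0 counts in shCD44 and 2, 3 and 3 in shCtrl libraries. No value of IFNB1 or IFNA13 exceeded 3 counts, the limit that a count of 0 allows, and neither difference was tested.

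On the receiving side, 6 of 15 tested receptors, Janus kinases and other STAT factors rose and 1 fell with the hairpin under DMSO (median 0.11), and 3 rose and 1 fell under temozolomide (median 0.07). Without shCtrl DMSO library 2 none of them was called lower under DMSO. Of all genes, 42.6% were called under DMSO (21.1% higher and 21.4% lower) and 42.3% under temozolomide (22.0% higher and 20.3% lower). Over both directions, the number called in this list was near that share under DMSO and below it under temozolomide. Of the ISGF3 subunits among the members, IRF9 rose by 1.33 and STAT2 by 0.17 under DMSO on the log2 scale. The receptor chain IFNAR1 rose by 0.17 under DMSO (edgeR adjusted p = 0.00384) and was at 0.08 under temozolomide (edgeR adjusted p = 0.139), while IFNAR2 was not called, at -0.17 and -0.23 (edgeR adjusted p = 0.177 and 0.0509). TYK2, the kinase bound to IFNAR1, was at 0.11 under DMSO (edgeR adjusted p = 0.0958) and rose by 0.22 under temozolomide (edgeR adjusted p = 0.00132). With temozolomide JAK2, a kinase of the interferon gamma receptor, rose by 0.42 in shCD44 cells and by 0.52 in shCtrl cells (edgeR adjusted p = 0.000470 and 6.1e-05).

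Among 14 tested brakes on signalling, 5 rose and 2 fell with the hairpin under DMSO, and 7 rose and 2 fell under temozolomide, with medians of 0.07 and 0.12. The count that fell under DMSO was 1 without library 2 of either shCD44 DMSO or shCtrl DMSO. Beside these brakes, 42.6% of all genes were called under DMSO (21.1% higher and 21.4% lower) and 42.3% under temozolomide (22.0% higher and 20.3% lower). USP18, the protease that removes ISG15 and quiets the type I receptor, rose by 0.46 under DMSO and by 0.23 under temozolomide (edgeR adjusted p = 0.000411 and 0.0453). SOCS2, a suppressor of cytokine signalling, rose by 0.96 and 0.81 (edgeR adjusted p = 5.7e-05 and 0.000390). PTPN2, a phosphatase of Janus kinases, was at -0.10 (edgeR adjusted p = 0.182) and fell by 0.32 under temozolomide (edgeR adjusted p = 7.7e-05). SOCS1 did not pass the filter, with 3 to 15 counts per library.

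Interferon-stimulated genes that serve as a readout of the pathway rose almost throughout with the hairpin, in a list chosen with earlier results of these data known and so no independent evidence of direction. Of 29 tested, of 33 listed, 28 were higher and none lower in shCD44 DMSO against shCtrl DMSO libraries (median 1.27). In shCD44 TMZ against shCtrl TMZ libraries 25 were higher and none lower (median 0.81). CXCL10, CXCL11, MX2 and RSAD2 passed the low-count filter through their shCD44 libraries, where they were high. CXCL10, for example, had 22, 18 and 19 counts in shCD44 DMSO and 3, 2 and 1 in shCtrl DMSO libraries. The place of these genes in the counts and medians is thus no support for a rise. The CPM of the 33 listed genes summed to 1126, 742 and 793 in shCD44 TMZ, 608, 588 and 607 in shCtrl TMZ, 1142, 1222 and 1155 in shCD44 DMSO and 579.9, 642 and 542 in shCtrl DMSO libraries. Library 1 of shCD44 TMZ nearly reached the lowest library of the DMSO-treated knockdown, and the other 2 lay between library 1 and the controls. With temozolomide 17 of the 29 fell and none rose in shCD44 cells (median -0.43), whereas 4 rose and 2 fell in shCtrl cells (median 0.04). Without shCD44 TMZ library 1, 20 were higher and 1 lower in shCD44 TMZ against shCtrl TMZ, and 23 fell with temozolomide in shCD44 cells. The difference of responses was called for SAMD9 alone, at -0.48 (edgeR adjusted p = 0.0474), with a median of -0.52 over the 29 genes. This count depended on single libraries, at 15 genes lower without shCD44 TMZ library 1, 7 without shCtrl DMSO library 2 and 0 without shCD44 DMSO library 2. Without shCtrl DMSO library 2, 28 genes were higher with the hairpin under DMSO, and 2 rose and 0 fell with temozolomide in shCtrl cells. Without shCD44 DMSO library 2, 29 were higher with the hairpin under DMSO, and 12 fell with temozolomide in shCD44 cells.

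**Figure D4:**
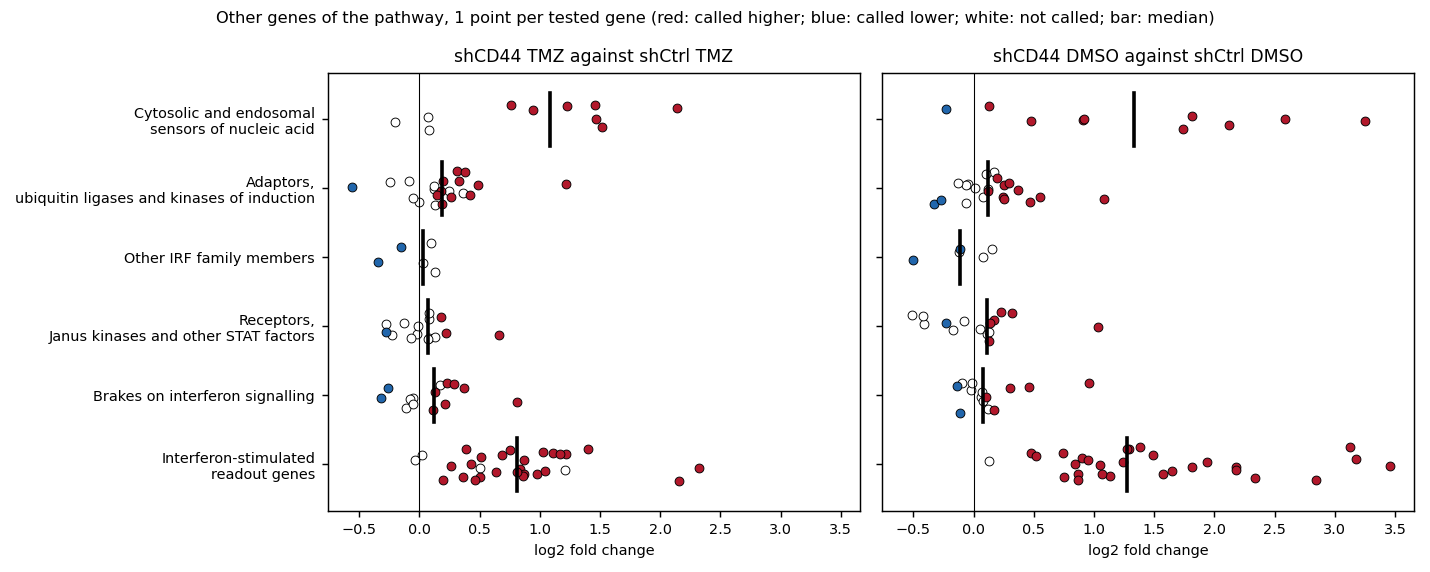
Log2 fold change of each tested gene of 6 pathway lists (1 point per gene; vertical bar, median) for shCD44 TMZ against shCtrl TMZ (left) and shCD44 DMSO against shCtrl DMSO (right). Sensors and interferon-stimulated genes spread to the right of 0, with medians of 1.09 and 0.81 on the left and 1.33 and 1.27 on the right, while the other lists have medians within 0.19 of 0.

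Members also varied in how alike their patterns were over the 12 libraries, measured as the root mean square difference of centred log2 CPM. IFIH1 and TLR3 were 0.13 log2 units apart, JAK1 and MAVS 0.08, and IRF9 and MAVS 0.74. IRF9 was the 1 tested member whose group means spanned at least 1 log2 unit, at 1.59, and the genes nearest to it among 10572 were IFI6 at 0.20, CCN1 at 0.21 and ISG15 at 0.22, where the median gene was 0.67 away. IFI6 and ISG15 are interferon-stimulated genes, and CCN1 encodes a secreted matrix protein. These distances share libraries and depth and were not tested.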

How the data were processed

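Per the labels, 12 poly(A) libraries of U251 cells were read on an Illumina NovaSeq. The authors deposited 2 tables, per the file headers: estimated counts, of which 10.7% to 12.0% per library were not whole, and FPKM, which scales fragments by transcript length and library total. The submitters' processing notes name HISAT2, RSEM, StringTie 1.3.1, Bowtie2 2.2.8 and fastp 0.18.0 without their roles. No source used here gives the genome build or strand setting; positions come from GENCODE v29 (GRCh38), joined by gene ID.

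Estimated counts were rounded and fitted with edgeR 4.0.16 in R 4.3.3: filterByExpr, TMM scaling, 1 quasi-likelihood model of 4 group means over 12 libraries (biological coefficient of variation 3.90%), and Benjamini-Hochberg adjustment over 12821 genes, called below 0.05. Fold changes are log2, the group named first over the other. CPM uses the TMM-scaled totals, and depth was 13.5 to 24.8 in units of 1e6 counts per library. The FPKM values were used for levels between genes and, with a pseudocount of 1 or 0.1, in limma 3.58.1. Other alternatives were scaling by library totals alone or by relative log expression factors, no low-count filter or a minimum of 1 CPM in 3 libraries, fits of the compared groups by themselves, a replicate block, a GC correction, DESeq2 1.42.0 and each library left out. The counts of the pathway lists without the libraries that stood apart were added after the data were seen. The pipeline was tested on simulated data. No 2 libraries were identical.

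Named genes were the members, CD44, up to 3 called genes per list, comparison and direction with the smallest adjusted p, and a set of pathway genes whatever their result; the examples printed are a part of these. The members and lists were chosen with earlier results of these data known.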

Additional observations from a re-analysis of the deposited data

Results flagged for a closer look

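The temozolomide response of IFIH1 differed between hairpins by the interaction test, at -0.54 on the log2 scale, shCD44 minus shCtrl (edgeR adjusted p = 0.0426). The call depended on the fit: it was made in 4 of 12 fits that each left out 1 library and in 7 of 11 other settings. The responses were -0.46 in shCD44 cells and 0.08 in shCtrl cells. All 3 shCD44 TMZ libraries were below all 3 shCD44 DMSO libraries, while shCtrl TMZ and shCtrl DMSO libraries overlapped. Groups of 3 libraries are too small for a check of single libraries against their group by range.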

How the results depend on the processing

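Of 1100 alternative values for 48 fold changes of the members, 1017 kept their sign and side of the threshold, 46 lost a call, 21 gained one and 16 changed sign; for the listed genes and CD44 these were 3637, 314, 32 and 16 of 3999. None of the 32 sign changes was called before or after. Genes called lower with the hairpin numbered 1736, 1738 and 1621 under DMSO and 1698, 1701 and 1560 under temozolomide in limma on log2(FPKM + 1), log2(FPKM + 0.1) and log2(FPKM + 1) without filter, and 0 members in each; in the same order genes lower with temozolomide were 693, 677 and 664 in shCD44 cells (members 2, 1 and 1) and 924, 923 and 835 in shCtrl cells (members higher 1, 1 and 1), and those lower with both changes 1767, 1763 and 1710. The difference of responses had 1, 0 and 0 genes higher, 2, 0 and 0 lower and 0 members lower. Scaling by library totals alone moved the median of all genes to 0.12 with both changes, against 0.01, and gave 5053 higher and 2039 lower there, 2533 and 1078 for temozolomide in shCD44 cells (1 member higher) and 2870 and 1295 in shCtrl cells (2 members higher). GC correction gave 3 members lower with the hairpin under temozolomide, and 10 genes higher, 23 lower and 0 members for the difference of responses. For that difference, leaving out the low-count filter gave 187 higher, 359 lower and 2 members, and DESeq2 gave 125 and 212; DESeq2 called 746 genes higher with temozolomide in shCD44 cells. With both changes, MAVS was the 1 member lower under relative log expression factors and under no low-count filter.

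With each library left out, genes called for the difference of responses ran from 5 to 210 higher and 13 to 212 lower, with 0 to 2 members lower; the extremes were without shCtrl DMSO 1 and shCtrl TMZ 1 (higher) and without shCtrl TMZ 2 and shCD44 TMZ 3 (lower). Genes higher with temozolomide in shCD44 cells ran from 733 (without shCD44 DMSO 2) to 1186. JAK1 became 1 member higher with temozolomide in shCtrl cells without shCtrl DMSO 2, the other fits giving 0, and MAVS 1 member lower with both changes without shCtrl DMSO 1, again 0 in the others.

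Uncalled values that changed sign were these. GC correction gave JAK1 -0.06 (hairpin, DMSO), TLR3 -0.05 and TYK2 0.08 (temozolomide, shCtrl), and for the difference of responses MAVS -0.02, IRF3 -0.06, DHX58 -0.07, TBK1 0.03 and TYK2 -0.01. Library totals gave TYK2 0.04 (temozolomide, shCtrl) and, with both changes, MAVS 0.01, STAT2 0.08 and IFNAR2 0.10; the 3 limma settings gave STAT2 0.05, 0.06 and 0.05 and IFNAR2 0.22, 0.24 and 0.22 there. With libraries left out, JAK1 ran from -0.02 to 0.03 (hairpin, DMSO), TYK2 from -0.07 to 0.01 (temozolomide, shCtrl), IRF1 from -0.09 to 0.13 (temozolomide, shCD44), IFNAR2 from -0.11 to 0.13 (both), and in the difference of responses MAVS from -0.04 to 0.04, DHX58 from -0.13 to 0.21 and IFNAR2 from -0.22 to 0.03.

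Replicate numbers showed no clear pairing of the libraries: 18 same-number pairs had correlations of deviations from -0.0770 to 0.136, and the best match was the own number for 6 of 12. With the number as a block, the difference of responses had 103 genes higher and 119 lower, and MAVS was 1 member lower with both changes. Where a cause is not given by the setting itself, the cause was not tested. Depth limits IRF7, at 0 to 7 counts per library, SOCS1, at 3 to 15, and the 21 interferon ligands, which together summed to 4 to 17.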
